A study of Mus musculus with 4 samples.

Results

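Complement is a cascade of plasma and tissue proteins that tags cells and debris. In its classical pathway the recognition molecule C1q, built from the chains encoded by C1qa, C1qb and C1qc, starts a chain of cleavages through C4 and C2 to C3, whose fragments mark a target for phagocytes and release the peptides C3a and C5a. In the central nervous system microglia are the known main source of C1q, astrocytes of clusterin, and activated glia and infiltrating myeloid cells are known for raised complement expression in inflammation. The 9 genes described here span the pathway: the C1q chains, the components C4b and C3, the inhibitors Serping1 (C1 inhibitor) and Clu (clusterin, an inhibitor of the terminal complex), and the receptors C3ar1 (for C3a) and C5ar1 (for C5a). They are a list taken by gene symbol, 9 of the 41862 gene columns of the deposited tables, and the cells were clustered without them and without 40 further complement genes.

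The data are 4 single-cell libraries made by inDrops, in which cells are captured in droplets and every captured RNA receives its own molecular tag (UMI), so that molecules rather than copies are counted. All mice were C57BL6 and carried Aldh1l1CreERT2-TdTomato, in which the promoter of the astrocyte gene Aldh1l1 drives an inducible Cre that switches on a red reporter. Cells came from papain-digested central nervous system and were sorted as TdTomato+ and positive for surface LAMP1, then by surface TRAIL. The 4 groups were EAE TRAIL+, naive TRAIL+, EAE TRAIL- and naive TRAIL-. EAE mice had experimental autoimmune encephalomyelitis, a model of multiple sclerosis, induced with 150 µg of MOG35-55 peptide in complete Freund's adjuvant and taken at the peak of disease; naive mice had no induction. The series names 3 EAE and 3 naive mice, with 1 library for each of the 4 groups, so no spread between mice was measured. There is no test and no replicate check of any difference below, and each interval is an exact 95% interval that covers counting error only.

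The labels call the cells astrocytes, and the libraries go against this label. Of 7899 barcodes with at least 500 UMIs and at most 20% mitochondrial UMIs, astrocyte-like cells numbered 9 of 1814 in EAE TRAIL+, 138 of 2229 in naive TRAIL+, 3 of 1597 in EAE TRAIL- and 35 of 2259 in naive TRAIL-. The astrocyte gene Gfap had 4, 18, 9 and 11 UMIs in the libraries in that order. The TRAIL+ libraries were mostly microglia-like (1630 cells, 89.9%, in EAE and 1891, 84.8%, in naive), and the TRAIL- libraries mostly vascular, with 299 (18.7%) and 318 (14.1%) microglia-like cells. Tnfsf10, the gene for TRAIL, went against the sort as well, at 17.3 and 48.6 counts per 1000000 UMIs (CPM) in EAE TRAIL+ and EAE TRAIL- and at 4.40 and 100.4 in naive TRAIL+ and naive TRAIL-. Xist, the RNA of the inactive X chromosome, stood at 1095 and 663 CPM in EAE TRAIL+ and EAE TRAIL- and at 9.35 and 10.6 in naive TRAIL+ and naive TRAIL-, and 4 Y-linked genes ran the opposite way, so disease and sex of the mice cannot be told apart. Total UMIs per library ranged from 2856696 to 3984975, median UMIs per kept cell from 949 to 1907.5, and each pair of libraries shared 23 to 40 of its kept barcode names.

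The C1q chains lie together on mouse chromosome 4 (GRCm38, minus strand): C1qb at chr4:136880129-136886187, C1qc at chr4:136889804-136893065 and C1qa at chr4:136895917-136898803, with 3616 bases between C1qb and C1qc and 2851 between C1qc and C1qa. The balance of C1qb and C1qc differed between EAE and naive libraries, and so did that of C1qa and C1qc. No promoter of C1qa was available, so only the bases before the starts of C1qb and C1qc are shown. They are from RefSeq's GRCm38.p6 promoters, read on the minus strand, at chr4:136886201-136886299 for C1qb and chr4:136893066-136893164 for C1qc. Capitals mark GAGGAA or its reverse complement TTCCTC, the core that myeloid factors of the PU.1 family are known to bind. Its first base lies 30 bases before the RefSeq start of C1qb, at base 136886200, and 193 before that of C1qc, at base 136892914; these starts differ from the upper ends of the genes given above, which are GENCODE's.
C1qb: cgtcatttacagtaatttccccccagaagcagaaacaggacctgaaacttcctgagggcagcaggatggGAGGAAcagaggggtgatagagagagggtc
C1qc: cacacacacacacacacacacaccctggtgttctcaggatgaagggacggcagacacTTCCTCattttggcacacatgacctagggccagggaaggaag
Of the 5 complement genes with a promoter in the table (C1qb, C1qc, C3, C3ar1 and C5ar1), these 2 held the core within 250 bases on either strand, as did 7639 of all 32851 promoters (23.3%). The match is a description of letters and marks no tested site.

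The main source differed between groups of these genes. Levels are in CPM of the UMIs summed over the cells of a class in a library; UMIs count 3′ ends and are not divided by gene length, so levels are compared between cells and not between genes. Microglia-like cells held 85.3% to 95.2% of the UMIs of each C1q chain in each library, also in the TRAIL- libraries, where they were 18.7% and 14.1% of the cells. In EAE TRAIL+ they also held 93.3% of the C4b, 89.2% of the C3ar1 and 86.9% of the C5ar1 UMIs. They held 3277444 of the 3759970 kept UMIs of all genes there, so the receptor shares lay near their share of all UMIs. In EAE TRAIL- they held 74.2% of the C4b, 67.8% of the C3ar1 and 53.5% of the C5ar1 UMIs. Monocyte-like cells, a cluster led by Chil3 and Plac8, held 29.3% of the C3ar1 and 43.0% of the C5ar1 UMIs of EAE TRAIL-. They also held 70.0% (145 of 207) of the C3 UMIs of EAE TRAIL+ and 84.4% (243 of 288) of those of EAE TRAIL-. In the naive libraries, with 23 C3 UMIs each, they held 6 of them (26.1%) in TRAIL+, where microglia-like cells held 16 (69.6%), and 20 (87.0%) in TRAIL-. Astrocyte-like cells held 91.5% of the Clu UMIs of naive TRAIL+, and choroid plexus-like cells held 88.1% in EAE TRAIL- and 66.8% in naive TRAIL-. Pericyte-like cells held 77.7% of the Serping1 UMIs in EAE TRAIL- and 45.4% in naive TRAIL-. Fibroblast-like cells held 61.9% of them in EAE TRAIL+ (13 of 21), 91.5% in naive TRAIL+ (65 of 71), 14.6% in EAE TRAIL- (19 of 130) and 49.6% in naive TRAIL- (59 of 119).

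**Figure D1:**
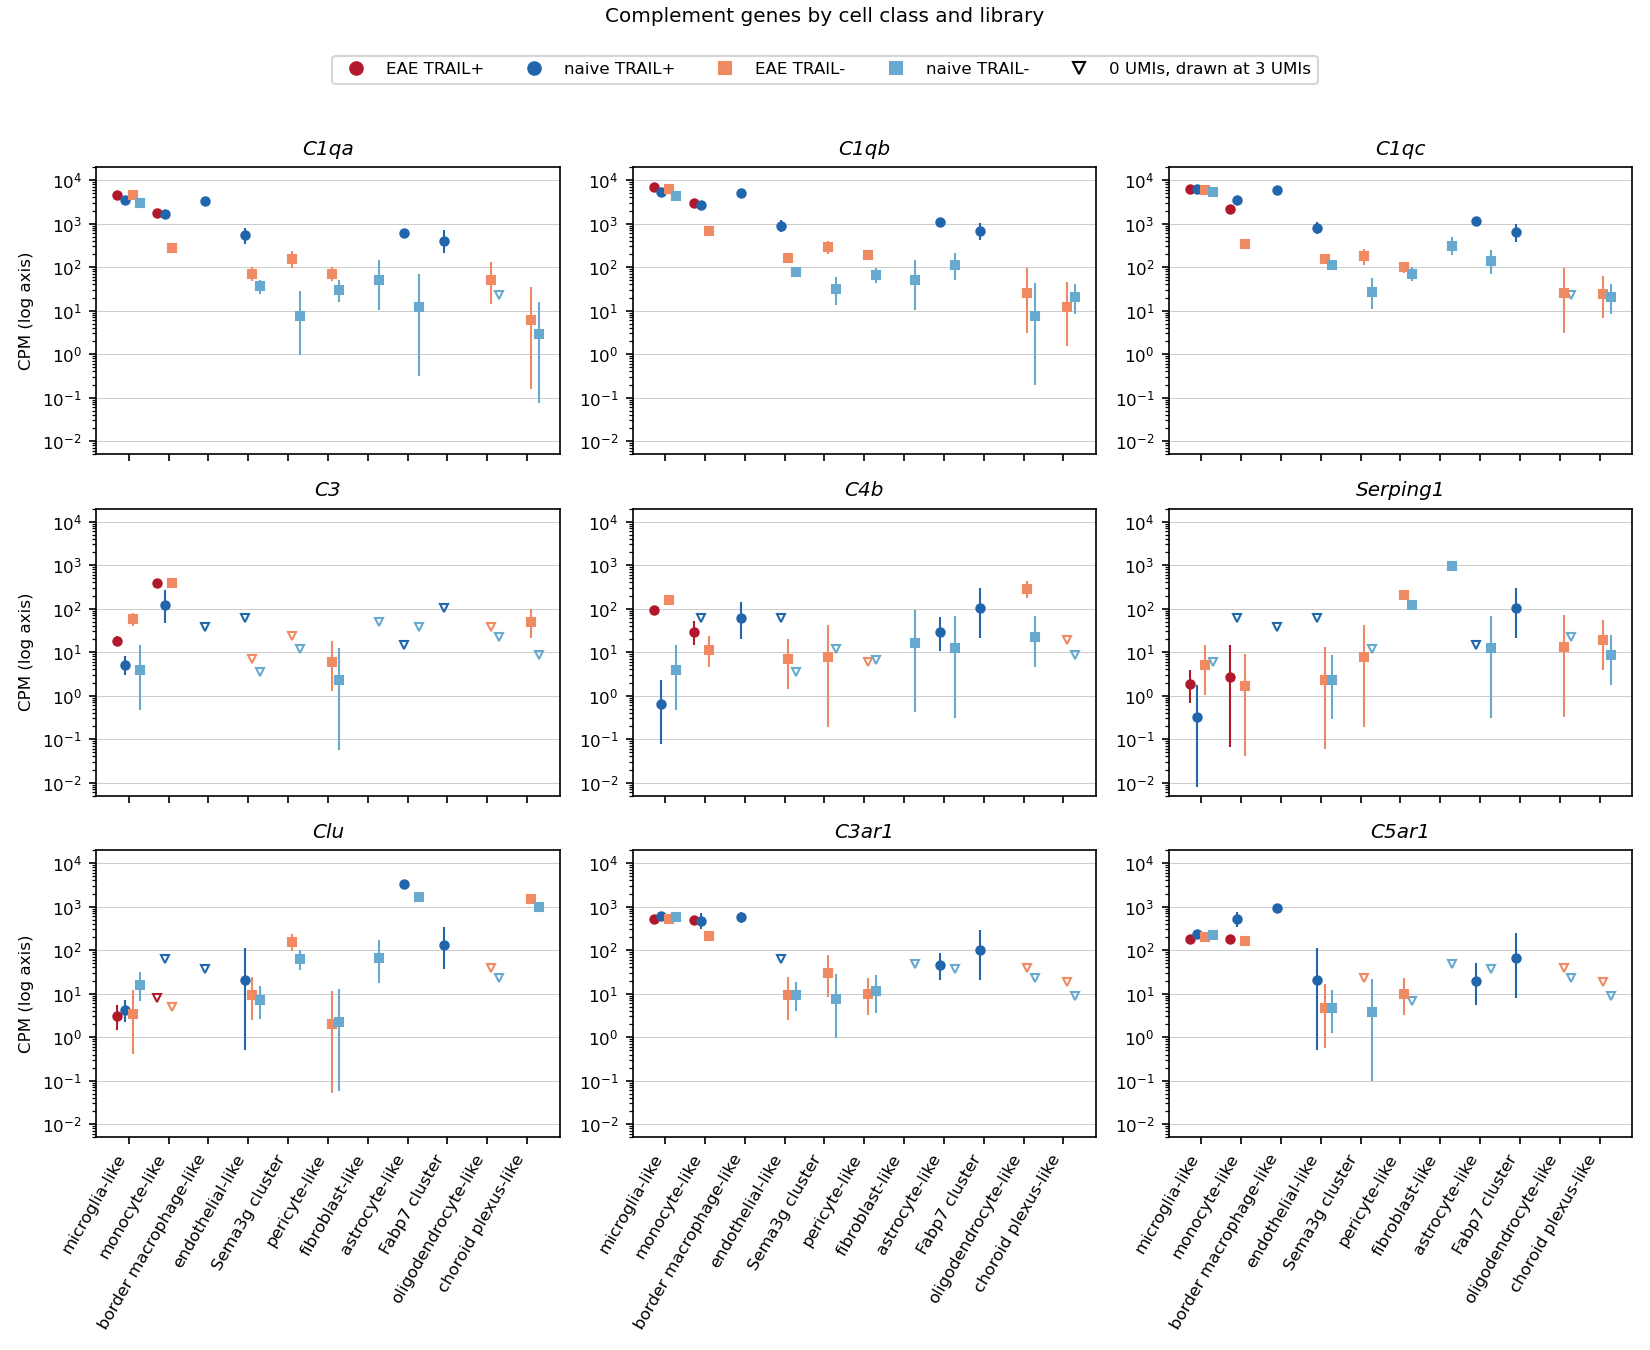
Level of each of the 9 complement genes (CPM on a log axis) by cell class, with 1 point per library and exact Poisson 95% bars; open triangles stand at the limit of 3 counts for classes with no UMI. The C1q chains are highest in microglia-like and border macrophage-like cells, C3 in monocyte-like cells, Clu in astrocyte-like and choroid plexus-like cells, and C4b in oligodendrocyte-like and microglia-like cells of EAE TRAIL-.

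In microglia-like cells C1qa and C1qb were higher in EAE than in naive libraries by less than 2-fold, and C1qc differed less. C1qa stood at 4464 CPM in EAE TRAIL+ and 3494 in naive TRAIL+ cells, and at 4526 in EAE TRAIL- and 2912 in naive TRAIL- cells. C1qb stood at 6807, 5418, 6300 and 4325 CPM in the same order of libraries. C1qc stood at 6301, 6357, 5925 and 5402 CPM. Both EAE libraries lay above both naive libraries for C1qa and C1qb, and for C1qc the levels of the 2 TRAIL+ libraries differed by less than their counting intervals. Among TRAIL+ cells the EAE to naive ratio was 1.28 for C1qa (1.25 to 1.31), 1.26 for C1qb (1.23 to 1.28) and 0.991 for C1qc (0.972 to 1.01). Among TRAIL- cells it was 1.55 for C1qa (1.46 to 1.66), 1.46 for C1qb (1.38 to 1.54) and 1.10 for C1qc (1.04 to 1.15). The scaling mattered for the size: by TMM, which lowered all log2 ratios of the TRAIL+ pair by 0.16, the ratios were 1.15 for C1qa, 1.13 for C1qb and 0.889 for C1qc. After every cell was thinned to 500 UMIs, 92.5%, 89.6%, 82.9% and 82.1% of microglia-like cells in that order of libraries had a C1qb UMI, against 3.03% of endothelial-like cells in EAE TRAIL- and 2.59% in naive TRAIL-. Those endothelial-like shares, from cells that should lack C1q, were taken as a reference for the TRAIL- libraries. Whether they come from background RNA was not tested. In naive TRAIL+ the endothelial-like share was higher, with a C1qb UMI in 11.1% of 45 cells (3.71 to 24.1) and C1qb at 902 CPM. EAE TRAIL+ held only 3 endothelial-like cells. Median depth was 1930 and 1515 UMIs per microglia-like cell and 1005.5 and 867 per endothelial-like cell in EAE TRAIL- and naive TRAIL-.

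The balance of the chains differed between disease states. The number of C1qb UMIs per C1qc UMI, a ratio within each library that does not depend on scaling, was 1.08 (1.06 to 1.10) in EAE TRAIL+ and 0.852 (0.835 to 0.870) in naive TRAIL+. In the TRAIL- libraries it was 1.06 (1.02 to 1.11) in EAE and 0.801 (0.757 to 0.847) in naive. C1qc made up 35.9%, 41.6%, 35.4% and 42.7% of the C1q UMIs of microglia-like cells in EAE TRAIL+, naive TRAIL+, EAE TRAIL- and naive TRAIL-. C1qa made up 25.4%, 22.9%, 27.0% and 23.0% in the same order, so its balance with C1qc differed as well. The 2 EAE libraries were alike and the 2 naive libraries lay apart from them, in either sort fraction. The same order held within single microglial clusters. In the cluster led by Fcrls, a microglial gene, the ratio was 1.05 and 0.846 in EAE TRAIL+ and naive TRAIL+, and 1.11 and 0.791 in EAE TRAIL- and naive TRAIL-. In the cluster led by Gpr34 and Slc2a5 it was 1.11 and 0.864 in EAE TRAIL+ and naive TRAIL+, and 1.08 and 0.816 in EAE TRAIL- and naive TRAIL-. A cluster led by Hcar2, Cd74, Ccl12 and H2-Q7, genes of activation and antigen presentation, held 671 and 182 cells in EAE TRAIL+ and EAE TRAIL-, against 13 and 3 in naive TRAIL+ and naive TRAIL-, and its ratio was 1.10 in EAE TRAIL+ and 1.05 in EAE TRAIL-. Over 9 other choices of cells and clusters the TRAIL+ ratio ran from 1.07 to 1.08 in EAE and from 0.847 to 0.852 in naive cells, and the TRAIL- ratio from 1.05 to 1.10 in EAE and from 0.793 to 0.804 in naive cells.

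**Figure D2:**
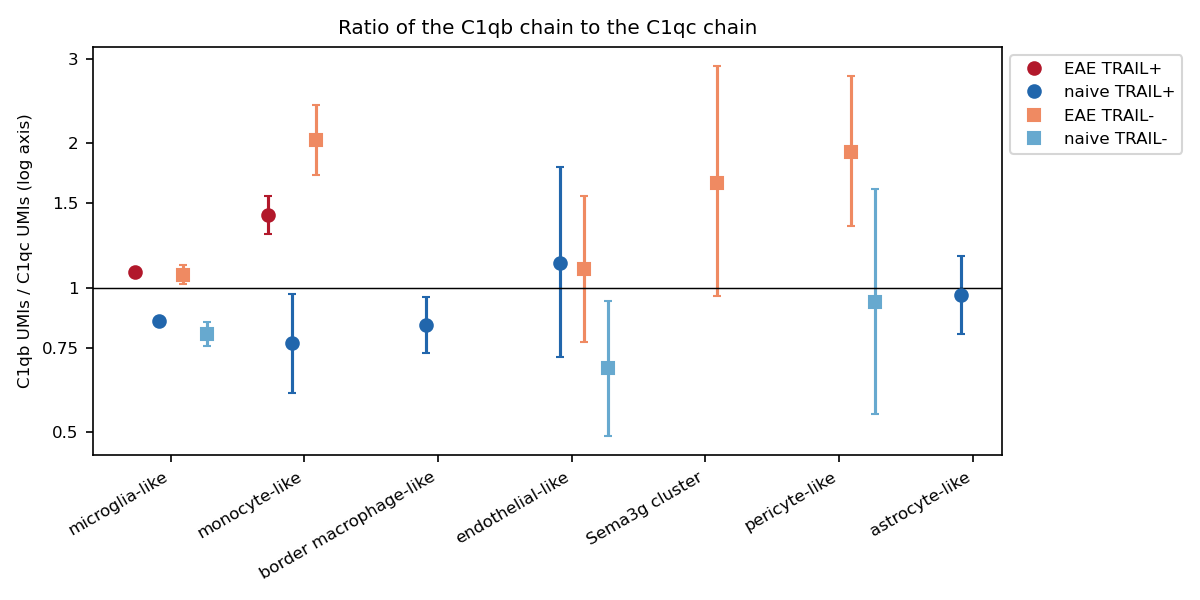
C1qb UMIs divided by C1qc UMIs (log axis) in each cell class and library, with exact Clopper-Pearson 95% bars. In microglia-like cells the EAE libraries lie at 1.08 and 1.06 and the naive libraries at 0.852 and 0.801, and monocyte-like cells of EAE TRAIL+ and EAE TRAIL- at 1.42 and 2.03.

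C1q also differed from the microglial markers themselves. The 3 chains together stood at 17572 CPM in EAE TRAIL+ and 15269 in naive TRAIL+, and at 16751 in EAE TRAIL- and 12640 in naive TRAIL-. The 15 microglia markers (among them P2ry12 and Tmem119) ran the other way, at 20257 and 25678 CPM in EAE TRAIL+ and naive TRAIL+ and at 15835 and 25888 in EAE TRAIL- and naive TRAIL-. The C1q to marker ratio was therefore 0.867 in EAE against 0.595 in naive TRAIL+ cells, and 1.06 in EAE against 0.488 in naive TRAIL- cells. A list of 10 immediate early genes known to respond to enzymatic digestion (Fos, Jun and others) moved with disease too, at 26799 CPM in EAE TRAIL+ and 36191 in naive TRAIL+, and at 17914 in EAE TRAIL- and 36936 in naive TRAIL-. Their part in the C1q levels was not tested.

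C1q in other classes was set beside the same markers. Border macrophage-like cells, the perivascular and meningeal macrophages marked by Mrc1 and Pf4, were numerous enough only in naive TRAIL+ (59 cells) and had C1qa at 3358, C1qb at 5025 and C1qc at 6000 CPM, with 1.90 C1q UMIs per microglia-marker UMI. Monocyte-like cells had 6957 CPM of C1q in EAE TRAIL+ (132 cells) and 1302 in EAE TRAIL- (230 cells), beside 4126 and 1828 CPM of microglia markers. Of the monocyte markers these cells had 16007 CPM in EAE TRAIL+ and 22830 in EAE TRAIL-, and of the border macrophage markers 772 and 382. They had 1.69 C1q UMIs per microglia-marker UMI in EAE TRAIL+ and 0.712 in EAE TRAIL-, beside 0.867 and 1.06 in microglia-like cells of those libraries. The part of mixed droplets was not tested. C1qb exceeded C1qc in these cells, by 1.42 (1.30 to 1.55) in the TRAIL+ and 2.03 (1.71 to 2.41) in the TRAIL- cells of EAE, against 0.765 (0.602 to 0.970) in 21 cells of naive TRAIL+. Astrocyte-like cells of naive TRAIL+ had 2886 CPM of C1q beside 4639 CPM of microglia markers, a ratio of 0.622 that lies close to the 0.595 of microglia-like cells in that library. In naive TRAIL- the astrocyte-like cells had 260.2 CPM of C1q, 21 UMIs in all.

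**Figure D3:**
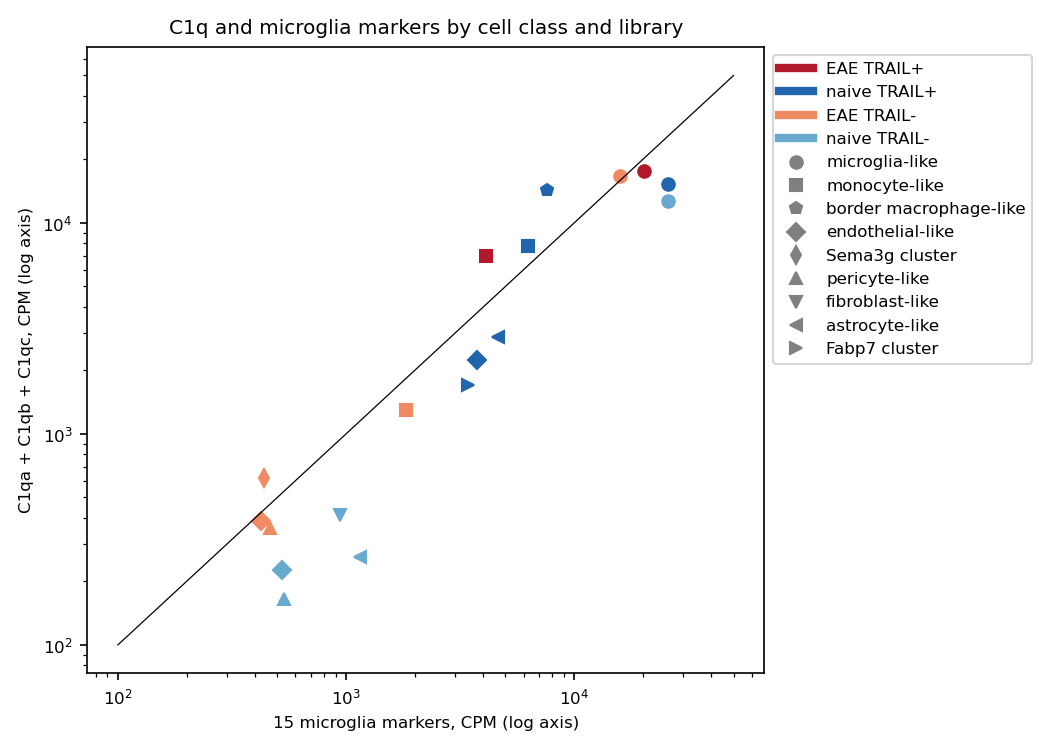
Summed level of C1qa, C1qb and C1qc against the summed level of 15 microglia markers (both CPM on log axes), 1 point per cell class and library; the line marks equal levels. Endothelial-like, pericyte-like, astrocyte-like and naive microglia-like points lie below the line, and border macrophage-like cells at 1.90 and EAE TRAIL+ monocyte-like cells at 1.69 above it.

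Vascular cells of the TRAIL- libraries had low levels of C1q, higher in EAE. In endothelial-like cells C1qa stood at 70.1 CPM in EAE TRAIL- and 36.3 in naive TRAIL-, C1qb at 165.8 and 77.3 and C1qc at 151.8 and 113.5. In pericyte-like cells C1qa stood at 70.6 CPM in EAE TRAIL- and 29.2 in naive TRAIL-, C1qb at 189.6 and 65.2 and C1qc at 98.8 and 69.7. A gene was counted as different when 2 libraries were at least 2-fold apart and its mean was at least 50 CPM. By that rule C1qb alone was counted. It was 2.15-fold higher in endothelial-like cells (1.51 to 3.05), where 7.13% of 3635 genes were counted. In pericyte-like cells it was 2.91-fold higher (1.90 to 4.57), where 7.25% of 3864 genes were. C1qa of pericyte-like cells was 2.41-fold higher (1.25 to 4.97), but its mean lay just under 50 CPM, so it was not compared. The C1qb ratio of pericyte-like cells ran from 1.75 with at least 1000 UMIs per barcode, no longer counted, to 15.5 without cells holding another class's markers. The C1qb ratio of endothelial-like cells ran from 1.59 by the mean of each cell's own CPM to 3.30 with classes named per barcode. It was not counted by that mean, by TMM or with at least 1000 UMIs. In each class 20 of the C1qb UMIs of EAE TRAIL- came from 1 cell, of 71 and 94 UMIs in all. Microglia markers were slightly lower in EAE, at 423 against 522 CPM in endothelial-like cells and 464 against 535 in pericyte-like cells. The C1q to marker ratio was 0.917 in EAE TRAIL- and 0.435 in naive TRAIL- for endothelial-like cells, and 0.774 in EAE TRAIL- and 0.307 in naive TRAIL- for pericyte-like cells, the same direction as in the microglia-like cells of those libraries. Monocyte markers ran the other way from the microglia markers, at 2310 CPM in EAE TRAIL- and 1634 in naive TRAIL- for endothelial-like cells and at 313 and 90.0 for pericyte-like cells. Dendritic cell markers stood at 77.1 against 69.1 CPM and at 50.4 against 18.0 in the same classes. The part of free RNA or mixed droplets of these cells was not tested.

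An unnamed vascular cluster led by Sema3g, an arterial endothelial gene, had 103 cells in EAE TRAIL- and 229 in naive TRAIL-. C1qa stood there at 152.9 against 7.72 CPM, C1qb at 290.4 against 30.9 and C1qc at 175.8 against 27.0, all counted as higher in EAE in a comparison where 22.2% of 3653 genes were counted. A single EAE cell held 33 of the 38 C1qb, 18 of the 20 C1qa and 15 of the 23 C1qc UMIs. Without Scrublet doublets and cells under 250 genes, or with at most 10% mitochondrial UMIs, 1 member was still counted, Clu, and the C1q chains were not. Microglia markers stood at 436 CPM in EAE TRAIL- (11 of 15 detected) and 239 in naive TRAIL- (13 of 15), and monocyte markers at 1727 and 1134 CPM; their part in these levels was not tested.

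C4b, the component cleaved by activated C1s, had the largest EAE to naive ratio of the 9 genes in microglia-like cells of either sort fraction. In microglia-like cells it stood at 93.1 CPM in EAE TRAIL+ (305 UMIs in 202 cells), 0.642 in naive TRAIL+ (2 UMIs), 158.5 in EAE TRAIL- (95 UMIs in 62 cells) and 3.96 in naive TRAIL- (2 UMIs). No cell held more than 6 C4b UMIs, so the level was spread over many cells of both EAE libraries and nearly missing from both naive ones. The EAE to naive ratio was 145 in TRAIL+ (39.8 to 1202) and 40.0 in TRAIL- (10.8 to 335); with 2 naive UMIs each, the upper bounds are loose. The TRAIL- ratio was counted as at least 2-fold, and the TRAIL+ mean lay under 50 CPM. Within EAE, TRAIL+ cells had 0.587 times the C4b of TRAIL- cells (0.465 to 0.747). After thinning to 500 UMIs, 3.44% of EAE TRAIL+ microglia-like cells had a C4b UMI (2.61 to 4.44) and 6.35% of EAE TRAIL- cells (3.87 to 9.75). In naive TRAIL+ none of 1891 did, which allows up to 0.195% by the exact interval, and in naive TRAIL- 0.314% did. Among endothelial-like cells 0.505% did in EAE TRAIL- and none of 928 in naive TRAIL-. These shares are a reference for the TRAIL- libraries only, and EAE TRAIL+, with 3 endothelial-like cells, has none.

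C4b was higher in the cluster led by Hcar2 and Cd74 than in the others and was not limited to it. In EAE TRAIL+ its level was 152 CPM (133 to 174) in that cluster, 46.6 (36.1 to 59.2) in the Fcrls cluster and 39.9 in the Gpr34 cluster. In EAE TRAIL- it was 198 CPM (156 to 248), 89.1 (48.7 to 149) and 85.0 in the same clusters. In naive TRAIL+ the Fcrls and Gpr34 clusters had 0.900 and 0 CPM, and in naive TRAIL- 2.99 and 5.95. The EAE levels lay above the naive levels in each cluster with cells of both. Outside microglia, oligodendrocyte-like cells had 283 CPM in EAE TRAIL- (177 to 429; 22 UMIs in 11 of 35 cells) and 22.6 in naive TRAIL- (4.66 to 66.1; 3 UMIs in 2 of 79 cells). Border macrophage-like cells of EAE TRAIL+ had 246 CPM (106 to 485), from 8 UMIs in 4 of 18 cells, 5 of them in 1 cell. In naive TRAIL+ the 59 border macrophage-like cells held 5 C4b UMIs. Monocyte-like cells had 29.0 CPM in EAE TRAIL+ and 11.4 in EAE TRAIL-, and pericyte-like cells had no C4b UMI in either TRAIL- library. Astrocyte-like cells of naive TRAIL+ had 6 UMIs in 6 of 138 cells (29.7 CPM). The oligodendrocyte markers stood at 133 and 136 CPM in microglia-like cells of EAE TRAIL+ and naive TRAIL+. They stood at 180 and 199.9 in those of EAE TRAIL- and naive TRAIL-. The part of oligodendrocyte RNA in the C4b of microglia-like cells was not tested. C4b lies at chr17:34728380-34743882; its close paralog C4a, at chr17:34809092-34823464, had at most 4.95 CPM in any class, and how reads were split between the pair is uncertain.

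C3, the component on which all pathways converge (chr17:57203970-57228136), was highest in monocyte-like cells. There it stood at 382 CPM in EAE TRAIL+ (145 UMIs in 58 of 132 cells) and 397 in EAE TRAIL- (243 UMIs in 103 of 230 cells), a ratio of 0.963 (0.779 to 1.19) in which the 2 sort fractions were not distinguishable by counting. The 21 monocyte-like cells of naive TRAIL+ had 6 C3 UMIs, 5 of them in 1 cell. The 18 of naive TRAIL- had 20 C3 UMIs in 4 cells, 13 of them in 1 cell, a level of 416 CPM, so naive monocyte-like cells were too few to set against those of EAE. After thinning, 15.9% of monocyte-like cells in EAE TRAIL+ and 19.1% in EAE TRAIL- had a C3 UMI, and none of 396 endothelial-like cells in EAE TRAIL- did. Microglia-like cells had much less, at 18.0 CPM in EAE TRAIL+ (59 UMIs in 33 cells), 5.14 in naive TRAIL+ (16 UMIs in 9 cells), 56.7 in EAE TRAIL- (34 UMIs in 12 cells) and 3.96 in naive TRAIL- (2 UMIs). Both EAE levels lay above both naive levels, by 3.50-fold in TRAIL+ (1.99 to 6.52) and 14.3-fold in TRAIL- (3.67 to 123). Most of this C3 lay in the cluster led by Hcar2 and Cd74, with 45 of 59 UMIs in EAE TRAIL+ and 32 of 34 in EAE TRAIL-, and without it the folds were 1.84 and 2.33. In the Fcrls cluster C3 stood at 6.96 and 5.85 CPM in EAE TRAIL+ and naive TRAIL+. All 10 monocyte markers were detected in microglia-like cells of both EAE libraries and 9 of 10 in both naive libraries, and summed to 632 and 462 CPM in EAE TRAIL+ and naive TRAIL+ and to 839 and 315 in EAE TRAIL- and naive TRAIL-. Dendritic cell markers summed to 55.2 and 34.0 CPM, and to 272 and 39.6, in the same pairs. Their part in the C3 and C4b of microglia-like cells was not tested.

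**Figure D4:**
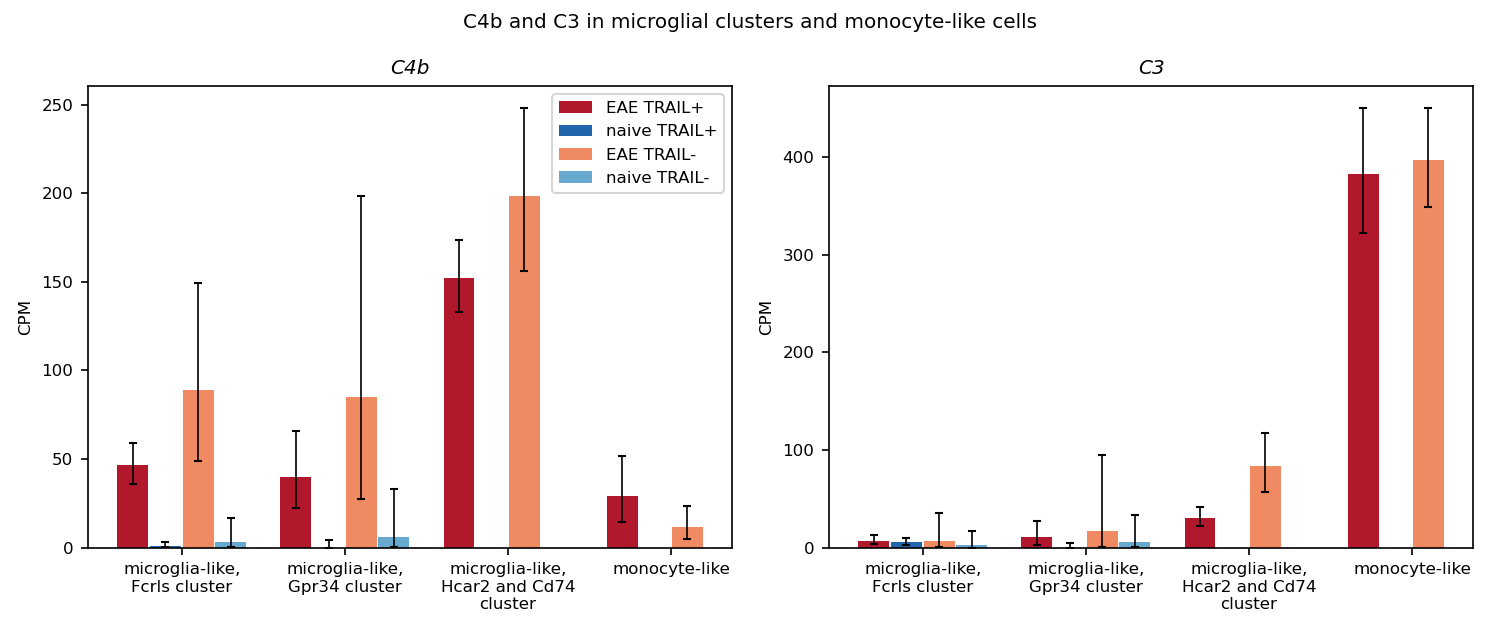
C4b and C3 levels (CPM, linear axis from 0) in the 3 microglial clusters and in monocyte-like cells, with exact Poisson 95% bars; naive cells of the Hcar2 and Cd74 cluster and of the monocyte-like class are too few to be drawn. C4b is near 0 in naive microglial clusters and highest, at 152 and 198, in the EAE cells of the cluster led by Hcar2 and Cd74, whereas C3 is highest in EAE monocyte-like cells at 382 and 397.

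Both inhibitors came mostly from non-myeloid cells. Clu, a secreted chaperone (chr14:65968483-65981547), stood at 3302 CPM in astrocyte-like cells of naive TRAIL+ (3056 to 3563; 122 of 138 cells) and 1660 in naive TRAIL- (1391 to 1967; 28 of 35 cells), where 34 of its 134 UMIs lay in 1 cell. In choroid plexus-like cells it stood at 1508 CPM in EAE TRAIL- (1325 to 1710) and 992 in naive TRAIL- (890 to 1103). The EAE libraries held too few astrocyte-like cells, 9 and 3, to give their Clu level. Microglia-like cells had 3.05, 4.17, 3.34 and 15.8 CPM of Clu in EAE TRAIL+, naive TRAIL+, EAE TRAIL- and naive TRAIL-, from 13 UMIs at most. In the Sema3g cluster Clu was counted as higher, with 152.9 CPM in EAE TRAIL- (20 UMIs in 10 cells) and 61.7 in naive TRAIL- (16 UMIs in 12 cells), a ratio of 2.48 (1.22 to 5.11). After thinning, 2.91% and 2.62% of those cells had a Clu UMI in EAE TRAIL- and naive TRAIL-, shares that were not distinguishable. Serping1, which blocks C1r and C1s (chr2:84765387-84775444), was highest, among sums of at least 50000 UMIs, in 30 fibroblast-like cells of naive TRAIL-, at 969.5 CPM (738 to 1251; 59 UMIs in 17 cells). The 2, 4 and 8 fibroblast-like cells of EAE TRAIL+, naive TRAIL+ and EAE TRAIL- stood higher still, at 3968, 4404 and 1158 CPM. In pericyte-like cells it stood at 203.7 CPM in EAE TRAIL- (101 UMIs in 56 of 470 cells) and 121.5 in naive TRAIL- (54 UMIs in 38 of 520 cells), a ratio of 1.68 (1.19 to 2.38). Endothelial-like cells had 2.34 CPM in EAE TRAIL- and 2.34 in naive TRAIL-, and microglia-like cells at most 5.01.

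The anaphylatoxin receptors were myeloid, and in microglia-like cells they differed by less than 2-fold between libraries. C3ar1 lies at chr6:122847138-122856161 and C5ar1 at chr7:16246743-16259540. C3ar1 in microglia-like cells stood at 531 CPM in EAE TRAIL+ and 605 in naive TRAIL+ cells, and at 509 in EAE TRAIL- and 568 in naive TRAIL- cells. C5ar1 stood at 176, 230.5, 203.5 and 228 CPM in that order. Each receptor was lower in the EAE library of each pair, with ratios for C3ar1 of 0.877 in TRAIL+ (0.821 to 0.937) and 0.896 in TRAIL- (0.760 to 1.06), and for C5ar1 of 0.764 in TRAIL+ (0.683 to 0.853) and 0.894 in TRAIL- (0.687 to 1.16). The TRAIL- intervals hold a ratio of 1. After thinning, 22.4%, 23.0%, 17.1% and 20.4% of microglia-like cells had a C3ar1 UMI in EAE TRAIL+, naive TRAIL+, EAE TRAIL- and naive TRAIL-, against 0.253% and 0.216% of endothelial-like cells in EAE TRAIL- and naive TRAIL-. In monocyte-like cells C3ar1 stood at 490 CPM in EAE TRAIL+ and 216 in EAE TRAIL-, a ratio of 2.27 (1.81 to 2.86), and C5ar1 at 179 and 160.1, a ratio of 1.12 (0.810 to 1.54). The highest C5ar1 level, 914 CPM (717 to 1147), was in border macrophage-like cells of naive TRAIL+, where C3ar1 stood at 580.2 (426 to 772). Over the class and library sums, C3ar1 was thus at about the same level in microglia-like and border macrophage-like cells, while C5ar1 was higher in the border macrophage-like cells than in microglia-like cells of any library.

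**Figure D5:**
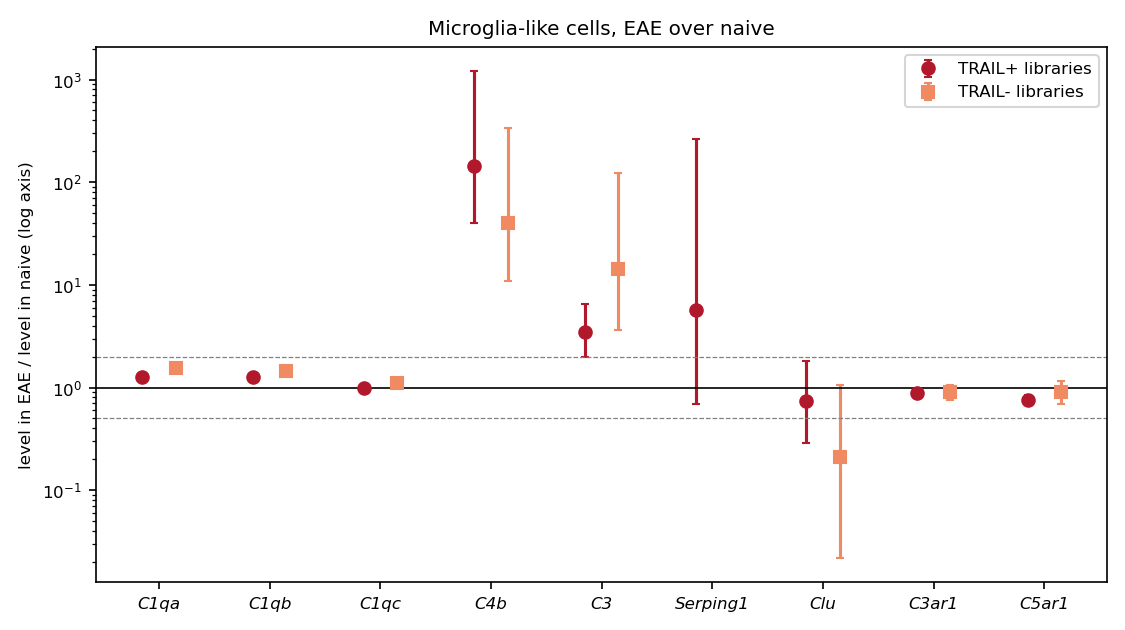
Ratio of the EAE to the naive level (log axis) of each complement gene in microglia-like cells, for TRAIL+ and TRAIL- libraries, with exact Clopper-Pearson 95% bars. C4b at 145 and 40.0 and C3 at 3.50 and 14.3 lie far above 1, C1qa and C1qb lie between 1.26 and 1.55, and C3ar1 and C5ar1 lie below 1.

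In microglia-like cells few members passed 2-fold. In EAE TRAIL+ against naive TRAIL+, 0 of the 5 members abundant enough to compare did, where 2.93% of 3209 genes did, and in EAE TRAIL- against naive TRAIL- 1 of 6 (C4b, higher) did, where 16.5% of 3258 did. In EAE TRAIL+ against EAE TRAIL- it was 0 of 6, where 2.8% of 3220 genes were counted, and in naive TRAIL+ against naive TRAIL- 0 of 5, where 1.23% of 3181 were. The members' median log2 ratio was -0.01, 0.34, 0.02 and 0.23 in these 4 comparisons, beside -0.05, -0.08, -0.03 and -0.04 over all genes compared. With the mean lowered to 10 CPM, the members compared in each sort fraction were the C1q chains, C3, C4b, C3ar1 and C5ar1. Of these, C3 and C4b were counted as higher in EAE in each. Among all genes 4.73% of 8575 were counted in the TRAIL+ pair and 26.3% of 8745 in the TRAIL- pair. In the TRAIL- pair the share of members counted was thus close to that of all genes. Endothelial-like and pericyte-like cells each had 1 of 3 members counted, with medians of 0.95 and 0.75 beside -0.05 and -0.04 over all genes. The Sema3g cluster had 4 of 4, where 22.2% of 3653 genes were counted, with a median of 2.97 beside -0.01; the C1q part of this rests largely on the single cell named above, and 1 of the 4 (Clu) was left under either filter given there. In monocyte-like cells of EAE TRAIL+ against EAE TRAIL-, 4 of 6 members (the C1q chains and C3ar1) were counted as higher, where 12.1% of 3166 genes were counted, with a median of 1.66 beside -0.05. The C1q ratios there were 6.55 for C1qa, 4.41 for C1qb and 6.30 for C1qc. No member was counted as lower in any of the 8 comparisons.

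Of 40 other complement genes, 28 reached 10 CPM in at least 1 class, but in the smallest sums a single UMI exceeds that level, and 19 reached it on more than 3 UMIs. On more than 3 UMIs the classical and lectin pathway had 6 of 12, led by C1s1, a C1 protease, at 164 CPM in fibroblast-like cells, C1rl at 98.0 in monocyte-like cells of EAE TRAIL- and C2 at 65.7 in fibroblast-like cells. Of the alternative pathway, Cfb (factor B) and Cfp (properdin) reached it, at 139.7 and 137 CPM in monocyte-like cells of EAE TRAIL+. None of the 7 genes of the terminal pathway reached it on more than 3 UMIs; the highest, Hc (which encodes C5), had 3 UMIs in astrocyte-like cells of naive TRAIL-. Regulators had 5 of 10. Cd59a, which blocks the membrane attack complex, stood at 549 CPM in endothelial-like cells of EAE TRAIL- and 252 in those of naive TRAIL- (2.18, 1.80 to 2.64), and at 451 and 224 in the Sema3g cluster (2.02, 1.38 to 2.95). Cr1l, a membrane inhibitor, reached 218 CPM in endothelial-like cells of naive TRAIL-. Receptors had 6 of 8. Itgam, the alpha chain of complement receptor 3, stood at 820 and 1066 CPM in microglia-like cells of EAE TRAIL+ and naive TRAIL+ and at 729 and 1023 in EAE TRAIL- and naive TRAIL-. Its partner Itgb2 reached 915 CPM in monocyte-like cells of EAE TRAIL+, and Cd93 stood at 596 and 968 in the Sema3g cluster of EAE TRAIL- and naive TRAIL-. Cd59a thus passed 2-fold in endothelial-like cells, where 7.13% of 3635 genes did, and in the Sema3g cluster, where 22.2% of 3653 did. It was higher in EAE in each. Its Sema3g ratio of 2.02 lies close to the limit, and TMM lowers the log2 ratios of that cluster by 0.13.

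Across 20 class and library sums of at least 50000 UMIs, the pattern of each member was set beside that of 9793 genes by Pearson's r of log2(CPM + 10). The sums share libraries and differ in depth, so r describes likeness only. C1qa was nearest to C1qb (r = 0.98), Ly86 (0.98) and C1qc (0.97), C1qb to Ly86 (0.98), C1qa and Laptm5 (0.97), and C1qc to C1qb, C1qa and Ccl3 (0.97 each). C3 was nearest to Scimp (0.98), AA467197 (0.97) and Plbd1 (0.97), and the receptors to Tlr13, Nckap1l and Casp4 for C3ar1 (0.99, 0.99 and 0.98) and Cd48, Wdfy4 and Lrrc25 for C5ar1 (0.98 each). Clu was nearest to Dlgap1 (0.96), Ica1 (0.92) and Slc7a10 (0.92), and Serping1 to Fhl2 (0.97), Ddr2 (0.95) and Ccl11 (0.95). C4b stood alone, with no gene above the 0.75 of Gm38380, followed by Rmi2 (0.74) and Eef1aknmt (0.71).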

How the data were processed

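Each library's deposited table holds UMI counts per barcode and gene symbol, unscaled by the authors; Bowtie and the genome GRCm38 are named per the submitters' processing notes, without a version or annotation. The tables list barcodes with at least 100 UMIs, 12987 in all. Kept were those with at least 500 UMIs and at most 20% mitochondrial UMIs. Of the 41862 gene columns, 41417 matched a GENCODE symbol, from which positions were taken.

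In scanpy 1.11.5, each barcode was scaled to 10000 and put on a log scale, and 2000 variable genes without complement genes, 30 components and 15 neighbours gave 15 Leiden clusters (leidenalg 0.10.2, resolution 1). A cluster took the name of the marker list that gave most of its 50 leading genes, with at least 3 such markers and no list with more among the first 10; markers had to be seen in at least 20% of its cells. The cluster led by Hcar2 and Cd74 was named against cells outside the other microglial clusters, with at least 5 markers required, a rule set after its genes were seen. Clusters led by Sema3g and by Fabp7 stayed unnamed. Scrublet doublets (90 barcodes, 1.14%) were kept and left out as an alternative.

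Counts were summed per class and library. Levels carry exact Poisson, ratios and shares exact Clopper-Pearson 95% intervals; UMIs of 1 cell are not independent, so these are too narrow where few cells hold a gene. Comparisons needed 50 cells and 50000 UMIs in each library, and a gene with a mean of at least 50 CPM was counted when at least 2-fold apart, a library at 0 being set to 3 counts. The Sema3g and monocyte-like comparisons were added after the data were seen. Shares of cells with a UMI were taken after thinning to 500 UMIs. The counting of genes was tested on simulated data. Members, marker lists and complement lists were chosen with earlier results of these data known. Named were all members; of other complement genes those 2-fold apart or among the 3 highest of a role; and the 3 genes most like each member. A result that the rule would name is not reported here. Alternatives changed cell filters, class rules, cluster resolution, scaling (TMM in edgeR 4.0.16, or median of ratios), the mean required, and the cells kept.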

Additional observations from a re-analysis of the deposited data

Results flagged for a closer look

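Barcodes with under 500 UMIs entered no comparison. In them C1qa, C1qb, C1qc, C3 and C4b stood higher in an EAE library than in the naive library of the same sort fraction, with counting intervals that do not meet. Only the 9 members were searched, and only for higher levels in EAE. The share of all genes passing this rule was not taken, so nothing particular to complement can be read from it. These barcodes numbered 978 in EAE TRAIL+ and 1422 in naive TRAIL+, and 1180 in EAE TRAIL- and 1421 in naive TRAIL-, and may hold broken cells or free RNA of any class. C4b stood at 97.4 CPM in EAE TRAIL+ (21 UMIs) and 12.8 in naive TRAIL+ (4 UMIs), and at 29.1 in EAE TRAIL- (8 UMIs) and 0 in naive TRAIL-, where 3 counts would be 8.98. C3 stood at 60.3 CPM in EAE TRAIL+ and 3.19 in naive TRAIL+, and at 47.3 in EAE TRAIL- and 2.99 in naive TRAIL-, with 13 UMIs in each EAE library and 1 in each naive library. C1qb stood at 5065 CPM in EAE TRAIL+ and 3677 in naive TRAIL+, and at 1118 in EAE TRAIL- and 467 in naive TRAIL-. In the TRAIL- libraries C1qa stood at 812 CPM in EAE and 278 in naive, and C1qc at 1048 in EAE and 563 in naive. The cells these UMIs came from were not identified.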

How the results depend on the processing

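No paired analysis was possible because each group holds 1 library. The member counts at 2-fold moved by over 1.5 times in 17 of 94 alternative counts, and the cause was not tested. With a mean of at least 10 CPM, 2 members (C3 and C4b) were counted in microglia-like cells of EAE TRAIL+ against naive TRAIL+, where 4.73% of all genes were. The same 2 were counted in EAE TRAIL- against naive TRAIL-, where 26.3% of all genes were. At that mean 1 was counted in EAE TRAIL+ against EAE TRAIL- (C3), 1 in naive TRAIL+ against naive TRAIL- (Clu) and 2 in pericyte-like cells. These and the counts below stand without the share of all genes at their setting. They describe only how the counts depend on the settings. Without the cluster led by Hcar2 and Cd74, 0 were counted in microglia-like cells of the TRAIL- pair, since the C4b mean fell under 50 CPM. With at least 1000 UMIs per barcode, 0 were counted in endothelial-like and 0 in pericyte-like cells. Endothelial-like cells had 0 by TMM scaling, 0 by the mean of each cell's own CPM, 2 at resolution 0.5 and 2 at resolution 2. Pericyte-like cells had 2 at resolution 0.5, 2 with at most 10% mitochondrial UMIs and 3 without cells holding another class's markers (C1qb, C1qc and Serping1). That last filter left 182 pericyte-like cells in EAE TRAIL- and 174 in naive TRAIL-. The Sema3g cluster had 1 (Clu) with at most 10% mitochondrial UMIs and 1 without doublets; it did not form under naming by barcode or at resolution 0.5. The C4b fold stayed within 49.1 to 162 in TRAIL+ and 22.1 to 42.7 in TRAIL-, and the C3 fold within 1.84 to 4.86 and 2.33 to 27.0, over 13 alternatives each. The C1qb to C1qc ratio of microglia-like cells stayed inside its main interval in all 36 alternative values. Each scaling gives a log2 shift that is subtracted from the log2 ratios, so a positive shift lowers them. By TMM the shifts over 0.1 in size were 0.16, -0.21 and -0.23 for microglia-like cells (TRAIL+ pair, EAE pair, naive pair). They were 0.10 for endothelial-like cells, 0.13 for the Sema3g cluster and 0.14 for monocyte-like cells. By median of ratios they were 0.10, -0.19 and -0.25 for the same microglial pairs, 0.11 for monocyte-like cells and -0.16 for pericyte-like cells.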
